A study of Mus musculus with 11 samples.

Results

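A set of 10 leukocyte genes (Ptprc, Cd48, Cd52, Cd53, Tyrobp, Laptm5, Coro1a, Vav1, Spi1 and Ikzf1) was followed across 6 sorted mouse cell populations, 5 of which had been depleted of CD45+ cells in the sort. Most are transcribed in many leukocyte lineages, and Tyrobp and Spi1 in fewer. The genes were looked up by symbol in the annotation of the array, and each was read from the probe set that names it alone and had the highest mean over all 11 arrays. All 10 were found among 18193 genes with such a probe set. They carried 20 probe sets in all, and no filter on signal was applied, so that every gene stayed in every comparison.

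Leukocytes are the nucleated cells of blood and immune tissue, and they fill most of the bone marrow, where stromal and skeletal stem cells are rare. CD45, the product of Ptprc, is a tyrosine phosphatase in the membrane of almost all of them, and antibodies against it are the usual means of removing blood cells from a stromal sort. The other genes encode surface glycoproteins (Cd48, Cd52), a tetraspanin (Cd53), a signaling adaptor (Tyrobp), a lysosomal membrane protein (Laptm5), regulators of the actin cytoskeleton and of receptor signaling (Coro1a, Vav1) and transcription factors of blood development (Spi1, Ikzf1).

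The study compared skeletal stem cells (SSCs) of the marrow and of the periosteum, the membrane that covers bone, with other stromal cells and with controls. RNA was measured on 2 Affymetrix mouse genome arrays per population, and on 1 for the Nes+ BMSCs (bone marrow stromal cells). Each RNA came from sorted cells of 2 or 3 male and female mice, and the methods call the arrays of a population biological repeats. The CD45+ cells were hematopoietic cells of the marrow. The Mx1+Nes+ BM-SSCs (BM-SSCs below) came from marrow of Mx1-Cre; Rosa-Tomato; Nestin-GFP mice, and the Mx1+Ocn- P-SSCs (P-SSCs below) from periosteal tissue of Mx1-Cre; Rosa-Tomato; Osteocalcin-GFP mice. Both had been sorted as CD45-, CD31- and Ter119- but CD105+ and CD140a+, as had the Nes+ BMSCs, which were taken with or without the Mx1 label. For the CD51+ BMSCs the label gives marrow cells negative for CD45, CD31 and Ter119 and positive for CD51, and the methods add CD105 and CD140a. The Osx+ cells, osteolineage precursors that the methods mark by an Osterix-GFP reporter, were negative for the same 3 blood and vessel markers. The labels place the source of the Osx+ cells and of the Nes+ BMSCs in periosteal tissue, although the title of the Nes+ sample names marrow.

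The Mx1 promoter is induced by interferon and is active in blood cells as well as in SSCs. The Mx1-Cre mice were irradiated with 9.5 Gy at an age of 4 weeks and given marrow of wild-type C57BL/6 mice, and 6 to 8 weeks later Cre was induced with 25 mg/kg of polyinosinic:polycytidylic acid every other day for 10 days. By the methods few blood cells of the host were left at that time. The methods list C57BL/6 mice of 4 to 6 weeks among those bought, and do not tie a strain or an age to the CD45+, CD51+ and Osx+ arrays.

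The values are log2 signals that the authors made with RMA (Robust Multichip Average), so that a difference of 1 is a 2-fold difference in signal. P-SSC array 2 and BM-SSC array 2 stood apart from the other 9 in the 3' beta-actin control. It read 7.81 and 12.78 on them and 13.23 to 14.25 on the others. The mean of 15 ribosomal protein genes on P-SSC array 2 was 6.35 against at least 10.86 elsewhere. By other measures the Nes+ array lay with these arrays. The interquartile range was 1.81 on P-SSC array 2, 1.98 on BM-SSC array 2, 2.44 on the Nes+ array and 2.83 to 3.56 elsewhere. The 3' BioB control read 13.76, 12.31 and 11.85 on them, and 6.51 to 9.77 elsewhere. Counts of the 10 genes that passed are given with and without array 2 of both SSC populations, and the Nes+ array stayed in. Shares of the CD45+ signal, the order of the means and the correlations include all arrays and are not given without these. Among genes of the sort markers, Sp7, the gene of Osterix, was highest in Osx+ cells, with a mean of 8.75 against 4.18 in CD45+ cells (adjusted p = 0.000665). Pdgfra, the gene of CD140a, had means of 3.52 in CD45+ cells and 7.85 to 11.62 in the depleted populations, with 4.41 on P-SSC array 2. Itgav, the gene of CD51, had means of 10.18 in CD51+ BMSCs, 8.77 in CD45+ cells (adjusted p = 1) and 10.76 in Osx+ cells (adjusted p = 1), and so did not set the CD51+ arrays apart.

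The means of the 10 genes were graded across the populations, and absence from any of these was not tested. All were highest in CD45+ cells, and 9 of the 10 were next highest in CD51+ BMSCs, at 7.58% (Cd48) to 44.9% (Cd53) of the CD45+ signal with a median of 27.4%. The median over the 10 genes was 3.26% in BM-SSCs, 1.96% in P-SSCs, 1.50% in Nes+ BMSCs and 0.629% in Osx+ cells, which were last for 9 of the 10. On Osx+ array 2 alone the median was 1.06%, and 7 of the 10 genes lay below the means of all other populations, without Ptprc, Cd48 and Ikzf1. The exceptions to the order of the means were Vav1, for which P-SSCs came after CD45+ cells on its brightest probe set only, and Cd48, which was lowest in Nes+ BMSCs. In sorted bulk RNA, fewer cells of a type and less RNA per cell cannot be told apart.

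**Figure D1:**
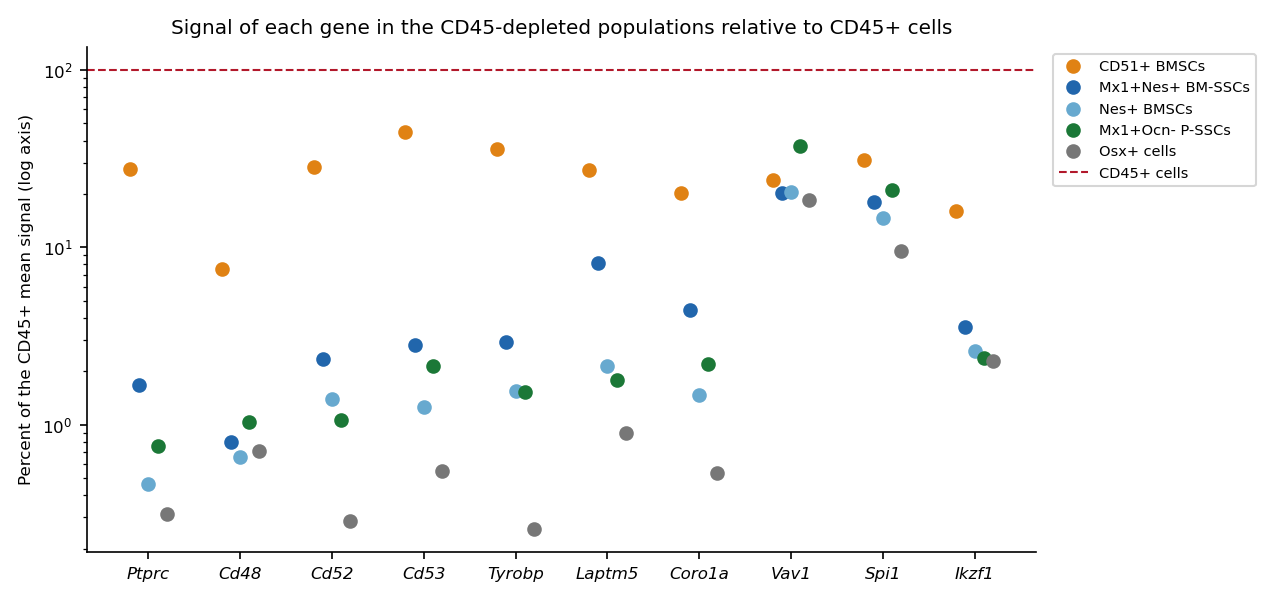
Signal of each of the 10 genes in the 5 CD45-depleted populations as a percentage of the CD45+ mean (vertical axis, log scale; dashed line, CD45+ cells at 100%), computed from the mean log2 values of each population. The CD51+ BMSCs lie between 7.58% and 44.9%, while Osx+ cells reach down to 0.256% for Tyrobp and Vav1 spans the narrowest range.

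Ptprc encodes the antigen of the depletion itself, and serves as the check of the sort. It read 12.06 and 12.05 on the CD45+ arrays. On the CD51+ arrays it read 10.23 and 10.17, which is 27.7% of the CD45+ signal although the label of these cells says CD45-. It read 7.42 and 4.90 on the BM-SSC arrays, 5.43 and 4.60 on the P-SSC arrays, 4.30 on the Nes+ array, and 2.42 and 5.07 on the Osx+ arrays. All depleted arrays lay below both CD45+ arrays, and both CD51+ arrays lay above every other depleted array. The array measures RNA and the gate surface protein, and the purity of the sorts was not tested here.

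Cd48 encodes a GPI-anchored ligand of the SLAM family that binds CD2 and CD244. It read 10.25 and 10.18 in CD45+ cells, 7.23 and 5.75 in CD51+ BMSCs, and between 2.55 and 3.85 on the 7 remaining arrays. The CD51+ arrays differed by 1.48 between themselves, the most of any of the 10 genes in that population, and among the remaining arrays the Osx+ values, 2.55 and 3.60, spanned all others but that of P-SSC array 2.

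Cd52 encodes a short GPI-anchored glycoprotein of lymphocytes and myeloid cells. Its signals were 13.005 and 13.12 in CD45+ cells, 11.16 and 11.34 in CD51+ BMSCs, 8.04 and 7.26 in BM-SSCs, 6.71 and 6.30 in P-SSCs, 6.90 in Nes+ BMSCs, and 3.59 and 5.63 in Osx+ cells. For this gene the BM-SSC arrays lay above those of P-SSCs, and those of P-SSCs above those of Osx+ cells.

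Cd53 encodes a tetraspanin of the leukocyte membrane. It read 11.60 and 11.48 in CD45+ cells, 10.23 and 10.55 in CD51+ BMSCs, 6.99 and 5.78 in BM-SSCs, 5.71 and 6.26 in P-SSCs, 5.22 in Nes+ BMSCs, and 3.49 and 4.56 in Osx+ cells. It kept the largest share of the CD45+ signal in CD51+ BMSCs, and the arrays of BM-SSCs and P-SSCs overlapped.

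Tyrobp encodes DAP12, an adaptor whose immunoreceptor tyrosine-based activation motif (ITAM) carries the signal of receptors on myeloid and natural killer cells. It read 13.09 and 12.93 in CD45+ cells, 11.40 and 11.66 in CD51+ BMSCs, 8.11 and 7.73 in BM-SSCs, 7.25 and 6.71 in P-SSCs, 6.99 in Nes+ BMSCs, and 3.23 and 5.58 in Osx+ cells. The range from CD45+ to Osx+ cells was the widest of the 10 genes, and again the order of CD51+, BM-SSC, P-SSC and Osx+ arrays held without overlap.

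Laptm5 encodes a transmembrane protein of lysosomes that lowers the surface level of antigen receptors in lymphocytes. It read 12.41 and 12.26 in CD45+ cells and 10.55 and 10.37 in CD51+ BMSCs. On the arrays of the other populations it read 9.41 and 8.03 (BM-SSCs), 8.38 and 4.68 (P-SSCs), 6.78 (Nes+ BMSCs), and 4.60 and 6.47 (Osx+ cells). On this brightest probe set the P-SSC arrays differed by 3.70, with the lower value on P-SSC array 2. On the brightest probe sets this was the largest gap between arrays of a population for any of the 10 genes. On other probe sets of Laptm5 P-SSC array 2 was not the lower one. Arrays 1 and 2 read 7.81 and 8.28 on 1426025_s_at, and 6.49 and 11.10 on 1447742_at. They read 6.54 and 7.35 on 1417721_s_at, and both read 2.97 on 1459841_x_at.

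Coro1a encodes coronin 1A, an actin-binding protein of leukocytes. Its signals were 12.27 and 12.19 in CD45+ cells, 10.03 and 9.84 in CD51+ BMSCs, 8.78 and 6.67 in BM-SSCs, 7.77 and 5.68 in P-SSCs, 6.13 in Nes+ BMSCs, and 3.63 and 5.72 in Osx+ cells. Array 2 was the lower one in both SSC populations, by 2.11 and 2.09, so that their arrays overlapped, and P-SSC array 2 fell within the Osx+ range.

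Vav1 encodes a signalling protein that acts below antigen receptors. On its brightest probe set it read 5.93 and 6.41 in CD45+ cells, 4.38 and 3.84 in CD51+ BMSCs, 3.81 and 3.93 in BM-SSCs, 4.18 and 5.31 in P-SSCs, 3.88 in Nes+ BMSCs, and 3.70 and 3.78 in Osx+ cells. Apart from the CD45+ arrays, P-SSC array 2 was the only one above its own array's median. The other probe set of Vav1 spanned a wider range, with 7.85 and 7.82 in CD45+ cells, 4.94 and 4.53 in CD51+ BMSCs, and 2.78 to 3.61 on the remaining 7 arrays.

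Spi1 encodes PU.1, the ETS family transcription factor of myeloid and B cell development. It read 8.14 and 8.34 in CD45+ cells, 6.63 and 6.49 in CD51+ BMSCs, 5.24 and 6.31 in BM-SSCs, 5.23 and 6.75 in P-SSCs, 5.47 in Nes+ BMSCs, and 5.11 and 4.60 in Osx+ cells. Here the values on array 2 of both SSC populations were the higher ones, and P-SSC array 2 exceeded both CD51+ arrays.

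Ikzf1 encodes Ikaros, a zinc finger transcription factor of lymphoid development. It read 10.86 and 10.79 in CD45+ cells, 8.41 and 7.95 in CD51+ BMSCs, 6.41 and 5.63 in BM-SSCs, 5.83 and 5.01 in P-SSCs, 5.56 in Nes+ BMSCs, and 4.36 and 6.41 in Osx+ cells. The 4 SSC arrays and the Nes+ array all lay at or between the Osx+ values, so that these populations were not separated by Ikzf1.

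**Figure D2:**
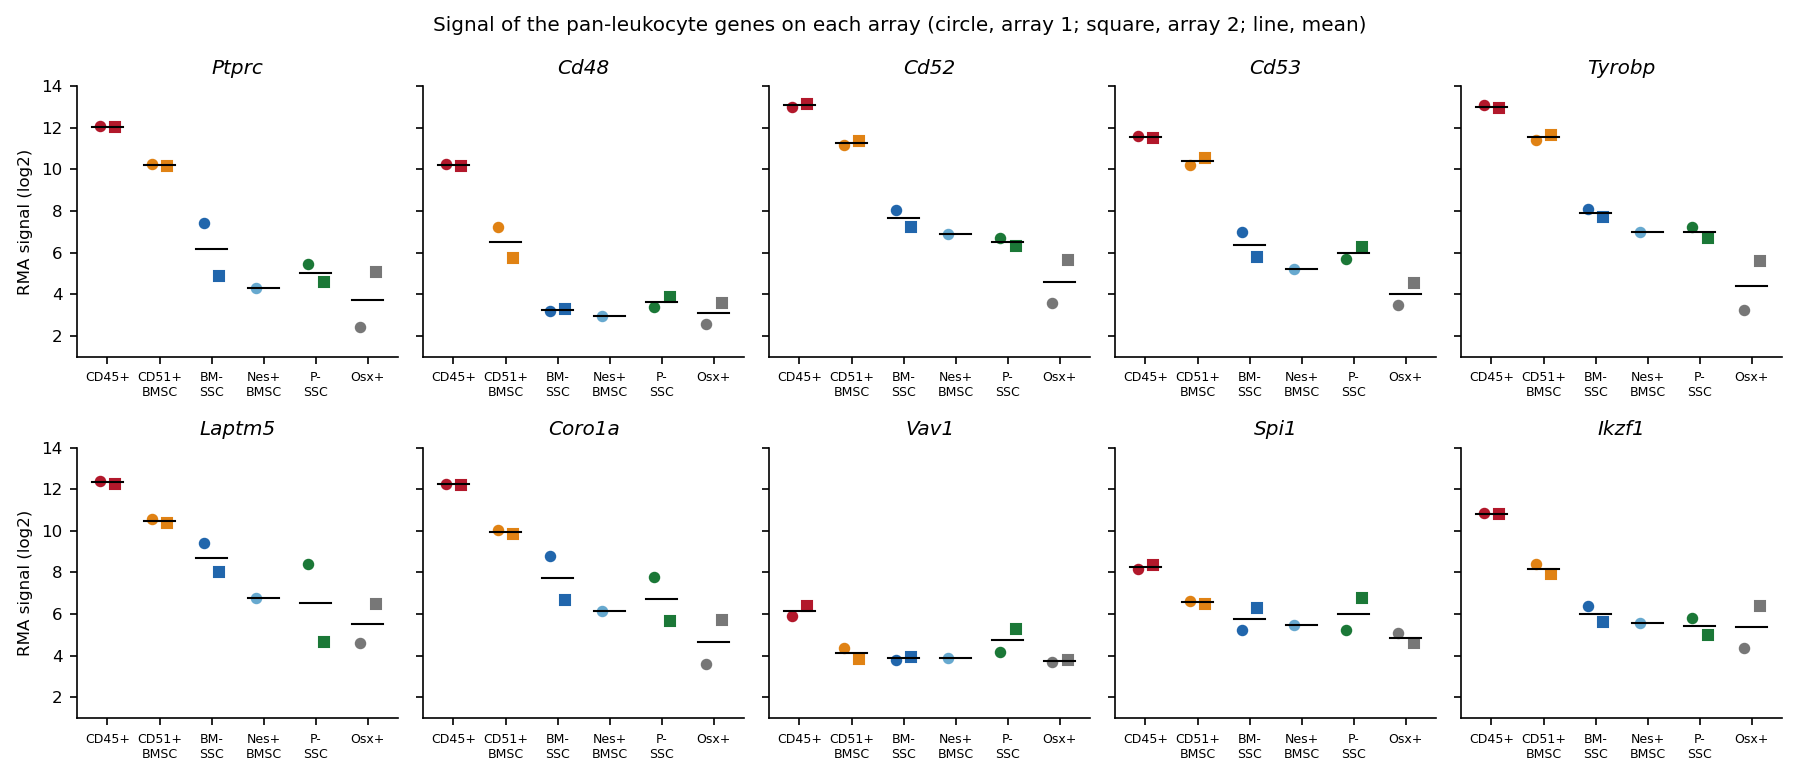
RMA signal (vertical axis, log2) of the 10 genes on each of the 11 arrays, by population (horizontal axis), with circles for array 1, squares for array 2 and lines for population means. The CD45+ and CD51+ arrays lie highest for nearly all genes, and the Osx+ arrays differ from each other by 2.65 for Ptprc and 0.09 for Vav1.

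PU.1 binds purine-rich sites around the letters GGAA, and the longer form GAGGAAG was searched for as its motif, with TGGGAA for Ikaros, on both strands of the window from 250 bases before to 50 after the transcription start. Of the 10 genes 7 were in the RefSeq promoter table of build GRCm38.p6, with 10 windows. GAGGAAG occurred in the windows of 3 of the 7 genes (Laptm5, Vav1 and Cd53) and in 15.4% of all genes in the table. The short GGAA, which GAGGAAG contains, was in 9 of the 10 windows and in 96.0% of all windows, and TGGGAA was in 0 of the 10 and in 25.6% of all. The 250 bases before the start are printed for the pair of genes with a match there, with GAGGAAG, or its reverse complement CTTCCTC where the match is on the minus strand, in capitals. The Laptm5 stretch is chr4:130913066-130913315 and the Vav1 stretch is chr17:57278850-57279099, both on the plus strand.
Laptm5: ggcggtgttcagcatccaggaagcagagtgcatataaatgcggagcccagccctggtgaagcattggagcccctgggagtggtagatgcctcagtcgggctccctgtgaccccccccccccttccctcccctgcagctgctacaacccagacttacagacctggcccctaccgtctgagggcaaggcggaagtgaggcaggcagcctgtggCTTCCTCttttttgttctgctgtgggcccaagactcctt
Vav1: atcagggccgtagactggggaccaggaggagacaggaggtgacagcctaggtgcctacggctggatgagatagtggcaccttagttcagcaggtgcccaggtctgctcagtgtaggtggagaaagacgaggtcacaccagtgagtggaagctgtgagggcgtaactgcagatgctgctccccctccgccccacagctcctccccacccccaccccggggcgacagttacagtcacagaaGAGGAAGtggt
With the start counted as position 0, the match lay at -39 to -33 in Laptm5 and at -11 to -5 in Vav1. These are matches of letters and not measured binding sites. Laptm5 and Vav1 were both highest in CD45+ cells and lowest in Osx+ cells, as were most of the genes without a match. All 10 genes were highest in CD45+ cells and 9 were lowest in Osx+ cells. Over the 11 arrays the signals of Laptm5 and Vav1 correlated with Pearson r = 0.516, the lowest of the 45 pairs, whose median was 0.915. Laptm5 followed the mean of the 10 genes with r = 0.944, Vav1 with r = 0.712 and Cd53 with r = 0.982. Each gene is itself part of that mean, and the brightest probe sets were used.

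Against CD45+ cells, the genes were lower in the Osx+, SSC and Nes+ populations almost without exception. The direction for Ptprc was set by the gate. In Osx+ cells all 10 fell in limma's test at a Benjamini-Hochberg adjusted p under 0.05, where 5.62% of all 45037 probe sets tested fell. The differences ran from -2.43 for Vav1 (95% confidence interval -3.46 to -1.40, adjusted p = 0.0136) to -8.61 for Tyrobp (-10.21 to -7.01, adjusted p = 0.000409), with a median of -7.32 beside 0.02 over all probe sets. In P-SSCs 9 fell (7.29% of all probe sets), with a median of -5.68, and the exception was Vav1 at -1.43 (-2.46 to -0.40, adjusted p = 0.0818). That holds for the brightest probe set of Vav1. The other, 1422932_a_at, fell in P-SSCs, at -4.44 (adjusted p = 0.00139). In BM-SSCs 9 fell as well (6.26% of all), with a median of -4.95, and the exception was Laptm5 at -3.62 (-6.30 to -0.94, adjusted p = 0.1). This too is the brightest probe set. On the next brightest of Laptm5 the means were 10.81 in CD45+ cells (SD 0.014) and 7.70 in BM-SSCs (SD 0.65). The Nes+ BMSCs, whose 1 array was assumed to vary like the others, had a median of -6.06 and 7 genes that fell (4.49% of all), without Laptm5 (-5.55, adjusted p = 0.0692), Spi1 (-2.78, adjusted p = 0.0665) and Vav1 (-2.29, adjusted p = 0.0563).

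With the pair of divergent SSC arrays (array 2 of each) omitted, all 10 genes fell in each of these 4 comparisons, while the share of all probe sets that fell rose to 23.4% in Osx+ cells, 22% in BM-SSCs, 30.4% in Nes+ BMSCs and 26% in P-SSCs. In a fit limited to the compared pair of populations, 0 passed for P-SSCs and 5 for BM-SSCs. Leaving out either CD45+ array left 7 genes for Osx+ cells, 3 for BM-SSCs, 2 for Nes+ BMSCs and 4 for P-SSCs, and leaving out either CD51+ array left 6 for BM-SSCs.

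The CD51+ BMSCs lay much closer to the CD45+ cells. All 10 genes had both CD51+ arrays below both CD45+ arrays, as did 42.5% of all probe sets, and the median difference was -1.87 beside -0.09 over all probe sets. Only 2 of them fell in limma's test, where 2.90% of all fell. These were Cd48 at -3.72 (95% confidence interval -5.01 to -2.43, adjusted p = 0.0113), 13.2-fold lower, and Vav1 at -2.06 (-3.09 to -1.03, adjusted p = 0.0383), 4.17-fold lower. For the others the intervals were wide. The smallest was that of Cd53 at -1.15 (-2.38 to 0.07, adjusted p = 0.355), and Ptprc was at -1.85 (-4.18 to 0.47, adjusted p = 0.493), Tyrobp at -1.48 (-3.08 to 0.12, adjusted p = 0.37) and Ikzf1 at -2.65 (-4.21 to -1.09, adjusted p = 0.0656).

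These calls depended on which arrays set the spread. With array 2 of both SSC populations left out, 8 genes fell (21.7% of all probe sets), and in a fit of the CD51+ and CD45+ arrays alone all 10 fell. Leaving out either P-SSC array gave 4. Leaving out CD45+ array 1, CD45+ array 2 or CD51+ array 2 left 0, and leaving out CD51+ array 1 left 1.

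Between 2 populations that had both been depleted of CD45+ cells, the CD51+ BMSCs exceeded the Osx+ cells. Of the 10 genes 6 rose in limma's test, where 1.51% of all probe sets rose: Tyrobp by 7.13 (95% confidence interval 5.53 to 8.73, adjusted p = 0.00339), Cd52 by 6.64 (5.16 to 8.12, adjusted p = 0.00338), Ptprc by 6.46 (4.13 to 8.78, adjusted p = 0.0185), Cd53 by 6.36 (5.14 to 7.58, adjusted p = 0.0025), Coro1a by 5.26 (3.0 to 7.51, adjusted p = 0.0382) and Cd48 by 3.41 (2.12 to 4.71, adjusted p = 0.0227). These are 140-fold for Tyrobp, 99.8-fold for Cd52, 87.9-fold for Ptprc and 10.7-fold for Cd48. They depend on Osx+ array 1, on which Ptprc lay at the 6.17th percentile of the array, and without it they were 62.0-fold, 49.3-fold, 35.0-fold (adjusted p = 0.139) and 7.40-fold (adjusted p = 0.23). The 4 that did not pass were Laptm5 (4.92, adjusted p = 0.095), Ikzf1 (2.79, adjusted p = 0.103), Spi1 (1.71, adjusted p = 0.297) and Vav1 (0.37, -0.66 to 1.40, adjusted p = 1). On all 10 genes both CD51+ arrays lay above both Osx+ arrays, as they did for 25.6% of all probe sets, and the median difference was 5.09 beside -0.07.

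Both transcription factors were thus among the genes that did not pass. Without array 2 of both SSC populations 9 rose (13.3% of all probe sets), Vav1 being the exception. Leaving out CD51+ array 2 left 0 and CD51+ array 1 left 1 (Cd53). Leaving out CD45+ array 1, CD45+ array 2 or Osx+ array 1 left 3, which without Osx+ array 1 were Tyrobp, Cd52 and Cd53. The smallest adjusted p after CD51+ array 2 was left out was that of Cd53 at 0.0523.

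**Figure D3:**
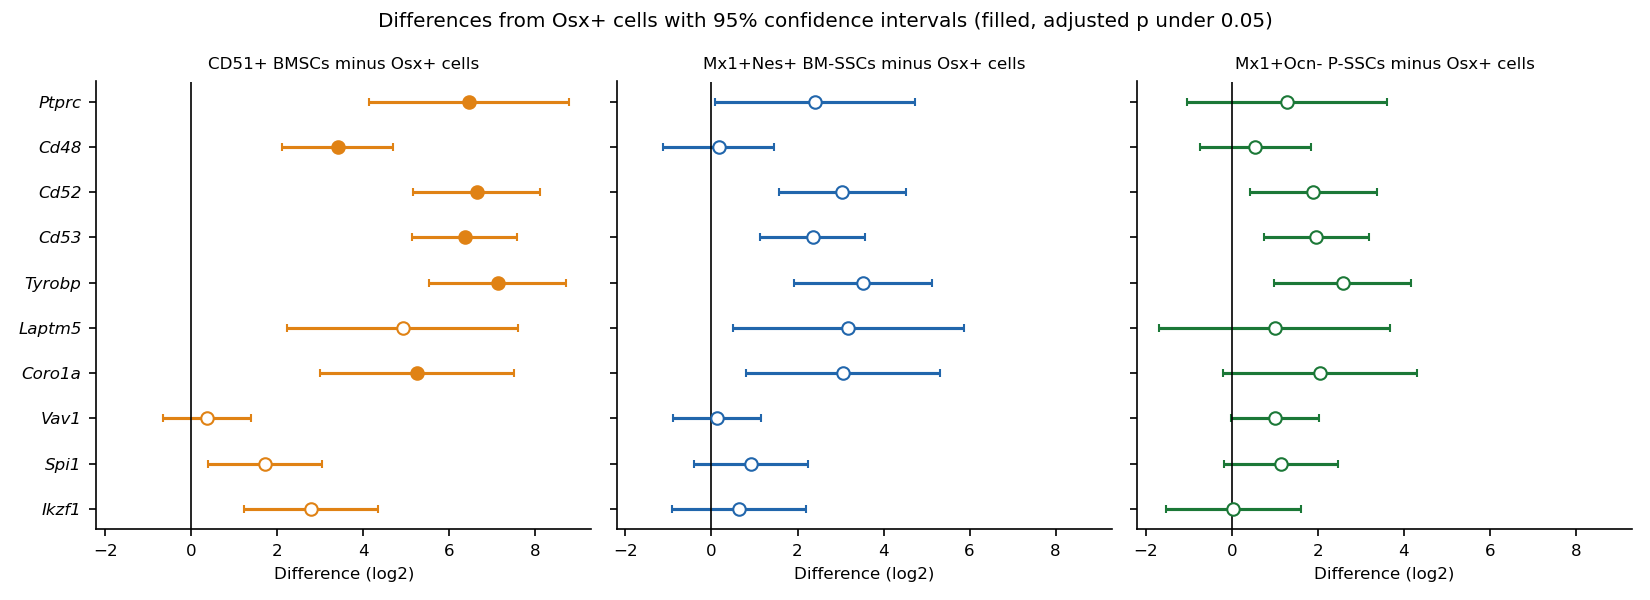
Difference of each gene from Osx+ cells (horizontal axis, log2) in CD51+ BMSCs, BM-SSCs and P-SSCs, with 95% confidence intervals from limma; filled circles passed at an adjusted p under 0.05. In CD51+ BMSCs 6 genes are filled and the means reach 7.13, while in the SSC populations none is filled and the means reach 3.52 and 2.58.

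By the median over the 10 genes, the SSC populations lay between the CD51+ BMSCs and the Osx+ cells. An exception was Vav1 on its brightest probe set, with a mean of 4.75 in P-SSCs against 4.11 in CD51+ BMSCs. On its other probe set these means were 3.40 and 4.74. The SSC means exceeded those of Osx+ cells for all 10 genes, by only 0.04 for Ikzf1 in P-SSCs. Both arrays lay above both Osx+ arrays for 7 genes in BM-SSCs (22.8% of all probe sets) and 5 in P-SSCs (37.0%). No gene rose in limma's test in BM-SSCs, where 0.0311% of all probe sets did, or in P-SSCs, where 0.0466% did. At an unadjusted p under 0.05, 6 were higher in BM-SSCs (2.92% of all probe sets) and 3 in P-SSCs (8.24%). The largest differences were those of Tyrobp, at 3.52 in BM-SSCs (95% confidence interval 1.92 to 5.12, adjusted p = 0.102) and 2.58 in P-SSCs (0.98 to 4.18, adjusted p = 0.176). Laptm5 was next in BM-SSCs, at 3.18 (0.50 to 5.86, adjusted p = 0.441), and Coro1a in P-SSCs, at 2.05 (-0.21 to 4.31, adjusted p = 0.282). Omitting the pair of divergent SSC arrays, 6 genes rose in BM-SSCs (7.15% of all probe sets) and 4 in P-SSCs (12%), and leaving out P-SSC array 1 gave 3 in P-SSCs (Cd53, Vav1 and Spi1). The median over the 10 genes was 2.39 in BM-SSCs and 1.21 in P-SSCs, beside 0.16 and 0.35 over all probe sets. Under median centring or quantile normalization the sign turned for Cd48 and Vav1 in BM-SSCs and for Ikzf1 in P-SSCs, none of which passed.

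Against CD51+ BMSCs, Cd53 fell in BM-SSCs by 4.0 (95% confidence interval -5.22 to -2.78, adjusted p = 0.0285), the only gene of the 10, where 0.591% of all probe sets fell. In P-SSCs 3 fell (again 0.591% of all): Cd52 by 4.74 (-6.22 to -3.27, adjusted p = 0.0291), Tyrobp by 4.55 (-6.15 to -2.95, adjusted p = 0.0408) and Cd53 by 4.40 (-5.62 to -3.18, adjusted p = 0.0211). Ptprc was at -4.04 in BM-SSCs (adjusted p = 0.184) and at -5.18 in P-SSCs (adjusted p = 0.089). The medians were -2.72 and -3.57, beside 0.15 and 0.34 over all probe sets. In BM-SSCs 9 of the 10 genes had both arrays below both CD51+ arrays (25.7% of all probe sets) and in P-SSCs 8 (27.8%). The CD51+ arrays are shared with the comparison to Osx+ cells, so that these are not independent results.

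Each of these 4 calls was lost when either CD51+ array or either CD45+ array was left out. Leaving out either Osx+ array, or BM-SSC array 2, left 0 genes for BM-SSCs, and either P-SSC array gave 3 and BM-SSC array 1 gave 4. For P-SSCs, leaving out P-SSC array 1 gave 9 genes that passed (8 lower, and Vav1 higher) and P-SSC array 2 gave 1, while either Osx+ array left 2. In a fit limited to the compared pair 0 genes passed in either comparison. Without array 2 of both SSC populations 5 fell in BM-SSCs (8.6% of all probe sets) and 9 in P-SSCs (15.9%).

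Between P-SSCs and BM-SSCs no gene of the 10 passed limma's test, and none was at an unadjusted p under 0.05, while 2.07% of all probe sets were. At the adjusted threshold 0 of all probe sets passed. The differences ran from -2.18 for Laptm5 (95% confidence interval -4.87 to 0.50, adjusted p = 0.98) to 0.87 for Vav1 (-0.16 to 1.90, adjusted p = 0.98). The intervals reach past a 4-fold difference for 6 of the 10 genes, such as -3.46 to 1.18 for Ptprc and -2.54 to 0.66 for Tyrobp. Leaving out P-SSC array 1, which leaves array 2 alone, gave Laptm5 as lower and Vav1 as higher in P-SSCs, and without array 2 of both populations none passed.

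The Osx+ arrays differed from each other in the 10 genes. Array 2 was higher for 9 of them, by 2.65 for Ptprc, 2.35 for Tyrobp, 2.09 for Coro1a and 2.05 for Ikzf1, and Spi1 was higher on array 1 by 0.51. The median of array 1 minus array 2 was -1.96, while over all probe sets it was -0.01 and the correlation between the arrays was 0.985. On array 1, 8 of the 10 genes were below the median of that array, and on array 2 the number was 2 (Cd48 and Vav1). Some other lists differed with them. The mean of 19 granulocyte markers was 4.35 on array 1 and 6.26 on array 2, that of 21 monocyte and macrophage markers 4.41 and 4.86, that of 10 erythroid markers 3.93 and 4.79, and that of 40 other pan-leukocyte genes 4.82 and 5.21. The means of 17 B cell markers, 4.17 and 4.08, and of 10 genes of the SLAM family and other partners of CD48, 3.50 and 3.40, were higher on array 1. The means of 15 stromal and osteolineage markers, 10.07 and 10.17, and of 15 ribosomal protein genes, 11.60 and 11.68, differed less. The part of these lists in the gap was not tested.

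In the other populations the median gap was smaller. Array 1 minus array 2 had a median of 0.16 over the 10 genes in CD51+ BMSCs and of 0.07 in CD45+ cells. Between the BM-SSC arrays the median of array 1 minus array 2 was 0.78 with array 1 higher for 7 genes, beside -0.24 over all probe sets. Between the P-SSC arrays it was 0.48 with array 1 higher for 6 genes, beside -0.46.

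Where a gene had more than 1 probe set, these did not all give the same pattern. Laptm5 had 5, and on the probe set 1447742_at its signal did not step down from the CD45+ cells. It read 6.19 and 6.01 there, 6.0 and 5.31 in CD51+ BMSCs, 6.28 and 8.87 in BM-SSCs, 6.49 and 11.10 in P-SSCs, 8.12 in Nes+ BMSCs, and 6.55 and 6.15 in Osx+ cells. The 3 highest values were those of array 2 of both SSC populations and of the Nes+ array, and no difference passed on this probe set. On the next brightest, 1426025_s_at, Laptm5 rose in CD51+ BMSCs against Osx+ cells by 3.06 (adjusted p = 0.00955 in limma's test), which the brightest did not. The dimmer probe set of Ptprc, 1440165_at, fell in CD51+ BMSCs against CD45+ cells by 3.51 (adjusted p = 0.0404) and differed by 0.71 from Osx+ cells (adjusted p = 1), so that the place of Ptprc in CD51+ BMSCs depends on the probe set. For Vav1 the other probe set, 1422932_a_at, fell by 3.10 in CD51+ BMSCs (adjusted p = 0.00673) and by 4.63 in Osx+ cells (adjusted p = 0.000498) against CD45+ cells. Over the 6 genes with more than 1 probe set, 1 gene fell in CD51+ BMSCs against CD45+ cells on the brightest and 3 on the next brightest, whereas 3 rose against Osx+ cells on the brightest and 1 on the next brightest.

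**Figure D4:**
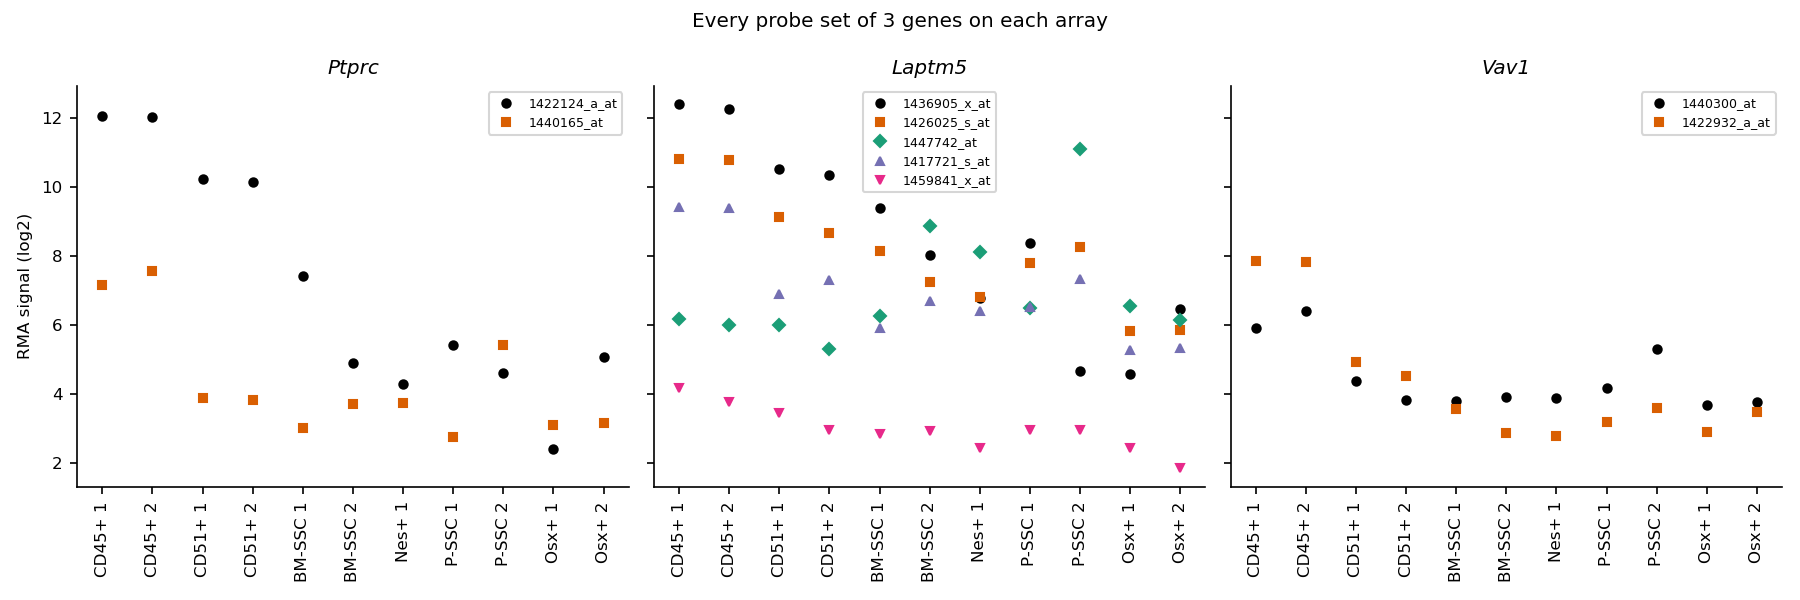
RMA signal (vertical axis, log2) of every probe set of Ptprc, Laptm5 and Vav1 on each of the 11 arrays (horizontal axis). On the CD51+ arrays the brighter probe set of Ptprc lies at 10.17 and 10.23 and the dimmer at 3.82 and 3.89, and 1447742_at of Laptm5 is highest on P-SSC array 2 at 11.10.

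Genes that work with the 10 were taken from lists drawn up from general knowledge and counted in the comparison of CD51+ BMSCs with Osx+ cells. Of 40 other pan-leukocyte genes 17 rose and 0 fell, where 1.51% of all probe sets rose and 0.711% fell, with a median difference of 2.13 beside -0.07 over all probe sets. They included the integrin chain Itgb2 (5.85, adjusted p = 0.00926), the cytohesin-binding protein Cytip (5.77, adjusted p = 0.0247), pleckstrin, Plek (5.67, adjusted p = 0.011), and Fcer1g, the Fc receptor gamma chain, which is an ITAM adaptor like Tyrobp (5.63, adjusted p = 0.00358). Against CD45+ cells 25 of the 40 fell in CD51+ BMSCs (2.90% of all probe sets) and 36 in Osx+ cells (5.62% of all), and their median was 19.4% of the CD45+ signal in CD51+ BMSCs and 3.29% in Osx+ cells.

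Receptors of Tyrobp, and adaptors and a kinase listed with them, rose with it in part. Of 12 measured, 6 rose in CD51+ BMSCs against Osx+ cells (1.51% of all probe sets). Among them were the myeloid receptors Trem1 (5.47, adjusted p = 0.00259), Trem3 (5.23, adjusted p = 0.00253) and Cd300ld (3.0, adjusted p = 0.0243). Fcer1g, an adaptor beside Tyrobp, is counted here, in the pan-leukocyte list above and among the relatives below. The kinase Syk (2.72, adjusted p = 0.0214), which docks on phosphorylated ITAMs, rose as well. Among 15 genes of the Src family kinases and the signaling that CD45 acts on, 2 rose, Syk and the B cell linker Blnk (3.43, adjusted p = 0.00949). Of 10 genes of the SLAM family and other partners of CD48 none passed, the largest differences being those of Cd84 (1.50, adjusted p = 0.385) and Slamf9 (0.80, adjusted p = 1), and 1 was higher at an unadjusted p under 0.05. Among 24 blood transcription factors beside Spi1 and Ikzf1, 4 rose: Nfe2 (5.01, adjusted p = 0.0176), Lmo2 (4.56, adjusted p = 0.0284), the Spi1 relative Spib (3.85, adjusted p = 0.00875) and Irf4 (2.61, adjusted p = 0.0341).

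Of 34 measured relatives of the 10 genes in the same families, 3 rose in CD51+ BMSCs against Osx+ cells, where 1.51% of all probe sets rose. These were Fcer1g, Spib and the coronin Coro2b (2.78, adjusted p = 0.00497). The means of 26 of the 34 were higher in CD51+ BMSCs, and the median difference was 0.62 beside -0.07 over all probe sets. Against CD45+ cells 9 fell and 2 rose in Osx+ cells (5.62% and 3.65% of all), with a median of 59.5% of the CD45+ signal. Without array 2 of both SSC populations 19 rose and 5 fell in CD51+ BMSCs against Osx+ cells (13.3% and 11.4% of all), and 19 fell and 9 rose in Osx+ cells against CD45+ cells (23.4% and 18% of all). Coro2b, unlike Coro1a, was lowest in CD45+ cells at 3.76 and read 8.32 in CD51+ BMSCs and 5.55 in Osx+ cells. Coro2a fell in Osx+ cells, from 6.91 to 3.25 (adjusted p = 0.00288), and Coro7 from 10.57 to 7.07 (adjusted p = 0.0418), while Coro1b had means of 9.03 and 7.08 (adjusted p = 0.0632) and Coro1c of 8.04 and 6.56 (adjusted p = 0.895). Of the relatives of Vav1, Vav2 had means of 5.15 in CD45+ cells and 5.08 in Osx+ cells (adjusted p = 1) and Vav3 of 8.02 and 7.13 (adjusted p = 0.331). Vav3 fell in BM-SSCs against Osx+ cells, to 4.19 (adjusted p = 0.0324). The relatives of Laptm5 were not highest in CD45+ cells, with means of 10.20 there, 12.10 in CD51+ BMSCs and 11.54 in Osx+ cells for Laptm4a (adjusted p = 0.606 and 0.807 against CD45+ cells), and of 7.56, 9.81 and 10.47 for Laptm4b (adjusted p = 0.197 and 0.0699).

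Markers of particular blood cells gave unequal shares of the CD45+ signal in CD51+ BMSCs. The median share was 49.0% for 19 granulocyte markers, 36.4% for 21 monocyte and macrophage markers, 18.1% for 17 B cell markers, 15.0% for 14 T and NK cell markers and 3.25% for 8 basophil and mast cell markers, whereas in Osx+ cells the medians were 1.43%, 4.75%, 11.3%, 17.1% and 1.76%. The monocyte and macrophage markers were mixed in CD51+ BMSCs. Against CD45+ cells 8 of the 21 fell and 2 rose (2.90% and 2.95% of all probe sets), and 4 means lay above those of CD45+ cells. The 10 erythroid markers went the other way, with a median of 399% of the CD45+ signal in CD51+ BMSCs and 116% in Osx+ cells, although both were sorted as Ter119-. Their mean read 4.31 and 4.41 in CD45+ cells, 6.96 and 6.49 in CD51+ BMSCs, 5.17 on both BM-SSC arrays, 6.18 and 5.44 in P-SSCs, 4.62 in Nes+ BMSCs, and 3.93 and 4.79 in Osx+ cells. Of the 10, 3 rose in CD51+ BMSCs against CD45+ cells, where 2.95% of all probe sets rose: Alas2 by 5.08 (adjusted p = 0.0147), Hemgn by 4.09 (adjusted p = 0.0226) and Rhag by 3.33 (adjusted p = 0.021). Both CD45+ arrays had a median of 4.43 over all probe sets, so that the erythroid shares are taken against values near it. The T and NK cell markers had median shares of 15.0% to 19.3% in all depleted populations. The part of background in these shares was not tested.

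Against Osx+ cells, where 1.51% of all probe sets rose, 11 of the 19 granulocyte markers rose in CD51+ BMSCs (Lcn2 by 8.31, adjusted p = 0.0444, Ltf by 7.45, adjusted p = 0.0283, Mmp8 by 7.09, adjusted p = 0.00189, and Cd177 by 6.95, adjusted p = 0.00572) and 12 of the 21 monocyte and macrophage markers (Cybb by 6.72, adjusted p = 0.0082, Lyz2 by 6.55, adjusted p = 0.0168, Clec7a by 5.03, adjusted p = 0.0055, and Mpeg1 by 4.93, adjusted p = 0.0124). Of the B cell markers 2 rose (Spib and Blnk) and of the T and NK cell markers none, the largest differences being those of Nkg7 (1.23, adjusted p = 0.655) and Cd3d (0.81, adjusted p = 1), with 0 of the 14 at an unadjusted p under 0.05. Of the other lists, basophil and mast cells had 1 gene of 8 (Hdc), erythroid cells 2 of 10 (Alas2 and Hemgn), megakaryocytes 0 of 8 (1 at an unadjusted p under 0.05; Itgb3 at 2.23, adjusted p = 0.421, and Gp1bb at -1.42, adjusted p = 0.911), osteoclasts 1 of 10 (Mmp9, also a granulocyte marker) and endothelium 1 of 12 (Tek). Without array 2 of both SSC populations 36 of the 40 pan-leukocyte genes, 10 of the 12 genes listed with Tyrobp, 15 of the 19 granulocyte markers and 17 of the 21 monocyte and macrophage markers rose, and 1 gene each of the first and the last fell. In this setting, where 13.3% of all probe sets rose, so did 7 of the 10 erythroid markers, 7 of the 17 B cell markers and 1 of the 14 T and NK cell markers. The part of these cell types in the signal of the 10 genes was not tested.

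Mean signals of the lists did not all follow the order of the 10 genes on single arrays. The granulocyte list read 11.44 and 11.56 on the CD45+ arrays, 10.18 and 9.99 on the CD51+ arrays, 7.96 and 7.33 on the BM-SSC arrays, 7.55 and 6.14 on the P-SSC arrays, 6.88 on the Nes+ array, and 4.35 and 6.26 on the Osx+ arrays, the last above P-SSC array 2. The B cell list read 5.84 and 4.88 on the CD51+ arrays, and the lower of these lay below BM-SSC array 2 at 4.90 and P-SSC array 2 at 5.01. The T and NK cell list, in contrast, read 6.93 and 6.92 in CD45+ cells and 4.06 to 5.32 on all depleted arrays, with the highest values on array 2 of the SSC populations. The list of stromal and osteolineage markers read 9.89 and 10.07 on the CD51+ arrays, against 3.77 on both CD45+ arrays, 9.69 to 11.30 on the BM-SSC and Nes+ arrays and P-SSC array 1, and 4.96 on P-SSC array 2. Against Osx+ cells 2 of its 15 genes fell in CD51+ BMSCs, Alpl (-4.11, adjusted p = 0.0055) and Sp7 (-3.60, adjusted p = 0.00623), and of 15 ribosomal protein genes none passed, the largest differences being those of Rps9 (0.54, adjusted p = 1) and Rpl19 (0.41, adjusted p = 1).

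**Figure D5:**
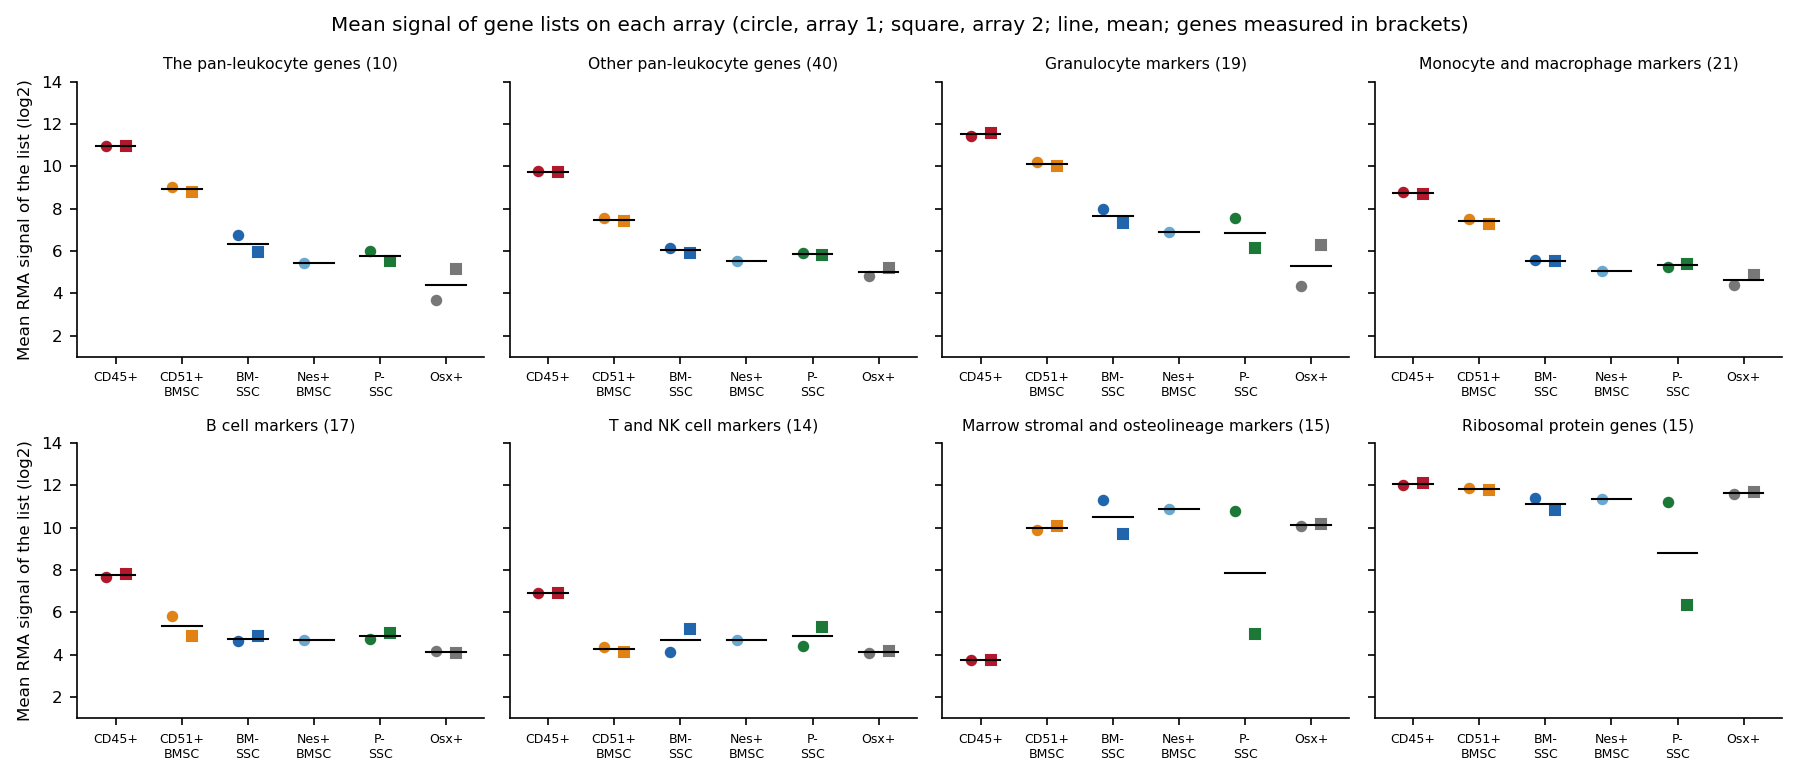
Mean RMA signal (vertical axis, log2) of 8 gene lists on each of the 11 arrays, by population (horizontal axis), with circles for array 1, squares for array 2 and lines for population means; the number of genes measured is in brackets. The pan-leukocyte and granulocyte lists step down from CD45+ to CD51+ to the other populations, while the stromal list is at 3.77 in CD45+ cells and the ribosomal list is low only on P-SSC array 2.

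The 10 genes rose and fell together over the arrays, with Vav1 and Spi1 as the loosest members. Over the 45 pairs Pearson r ran from 0.516 to 0.996 with a median of 0.915, and over the 28 pairs without Vav1 and Spi1 from 0.836 to 0.996. These correlations describe 11 arrays that fall into 6 populations, and the CD45+ and CD51+ arrays carry most of the spread. They use the brightest probe set of each gene and include array 2 of both SSC populations. On P-SSC array 2 Vav1 (5.31) and Spi1 (6.75) read higher than on P-SSC array 1 (4.18 and 5.23). Correlations without these arrays, or on the other probe set of Vav1, were not computed. The genes most like the mean of the 10 were Ncf1, a subunit of the phagocyte oxidase (r = 0.995), the Fc receptor Fcgr3 (r = 0.995), the GTPase Rac2 (r = 0.99), Lst1 (r = 0.99), the chemokine receptor Cxcr4 (r = 0.989), Ncf4 (r = 0.989), Themis2 (r = 0.989) and Lrg1 (r = 0.989). Ncf1 read 11.74 in CD45+ cells, 9.88 in CD51+ BMSCs, 8.13 in BM-SSCs, 7.36 in P-SSCs, 7.09 in the Nes+ BMSCs and 5.91 in Osx+ cells. Singly, the nearest gene to Ptprc was Itgb2 (r = 0.993), to Cd53 the chemokine receptor Ccr1 (r = 0.994), to Coro1a Cytip (r = 0.995), to Tyrobp Ncf1 (r = 0.987) and to Spi1 the costimulatory ligand Cd86 (r = 0.984). For the others these were Ms4a6c for Cd48 (r = 0.989), Lst1 for Cd52 (r = 0.991), Gda for Laptm5 (r = 0.987), Naif1 for Vav1 (r = 0.984) and Atp8b4 for Ikzf1 (r = 0.989).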

How the data were processed

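RNA of 6 sorted populations was measured on 11 Affymetrix mouse genome arrays. The authors deposited log2 values made with RMA in Partek GS and R; the submitters' processing notes name limma with no version. These values were used as they stand, after 64 control probe sets were left out, which left 45037. Gene names came from the platform annotation, in which 34945 of these carry 1 symbol, 932 several and 9160 none; 34741 of the first matched RefSeq genes by gene ID, with 0 symbols changed. Comparisons used limma 3.58.1 in R 4.3.3, with 1 model of population means over all arrays (5 residual and 2.65 prior degrees of freedom), Benjamini-Hochberg adjustment over all probe sets tested within each of 11 comparisons, and a threshold of 0.05. Percentages of the CD45+ signal were computed from differences of mean log2 values. The 10 genes and all lists were chosen with earlier results of these data known. Up to 4 genes of a list, those with the largest differences of CD51+ BMSCs from Osx+ cells, were named by rule, 2 where none passed. Further relatives were named from the coronin, Vav and Laptm families alone, and not in the order of their list. Alternatives were a fit of only the groups compared, quantile normalization, median centring, a variance trend with robust estimation, leaving out dim probe sets, 1 probe set per gene, another probe set of a gene, a replicate block, leaving out each array, and leaving out array 2 of both SSC populations. The method was tested on simulated data. The number of arrays limits the precision.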

Additional observations from a re-analysis of the deposited data

How the results depend on the processing

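Direction and call of the 110 differences between populations (10 genes in 11 comparisons) were the same in all 110 with 1 probe set per gene, in 106 with a variance trend, in 102 with median centring, in 96 with quantile normalization and in 79 when each fit held the compared pair of populations alone. In those pairwise fits 0 genes in P-SSCs, 5 in BM-SSCs, 10 in Nes+ BMSCs and 10 in CD51+ BMSCs passed against CD45+ cells, 9 in CD51+ BMSCs against Osx+ cells and 0 in both SSC populations against CD51+ BMSCs. Quantile normalization gave 1 for CD51+ BMSCs against CD45+ cells, 4 against Osx+ cells and 0 for both SSC populations against CD51+ BMSCs. With median centring, and with the variance trend, 2 passed for BM-SSCs against CD51+ BMSCs, and the trend gave 1 for P-SSCs. Leaving out dim probe sets, Vav1 among them, gave 1 for CD51+ BMSCs against CD45+ cells. Without array 2 of both SSC populations the counts were 10 for Nes+ BMSCs and 8 for CD51+ BMSCs against CD45+ cells, 9, 6 and 4 for CD51+ BMSCs, BM-SSCs and P-SSCs against Osx+ cells, and 5 and 9 for BM-SSCs and P-SSCs against CD51+ BMSCs. On the next brightest probe sets of 6 genes 3 passed for CD51+ BMSCs against CD45+ cells (1 on the brightest) and 1 against Osx+ cells (3 on the brightest), and 0 for either SSC population against CD51+ BMSCs (1 each).

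Leaving out each array in turn, the genes that passed against CD45+ cells numbered 0 to 4 in CD51+ BMSCs, 3 to 10 in BM-SSCs, 2 to 10 in Nes+ BMSCs, 4 to 10 in P-SSCs and 7 to 10 in Osx+ cells. Against Osx+ cells they numbered 0 to 7 for CD51+ BMSCs, 0 to 0 for BM-SSCs and 0 to 3 for P-SSCs. Against CD51+ BMSCs they numbered 0 to 4 for BM-SSCs and 0 to 9 for P-SSCs, and between the SSC populations 0 to 2. The causes of these changes were not tested.

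The sample numbers were not treated as pairs, since no label ties them to a shared animal or batch. Deviations of same-numbered arrays correlated with r = -0.267 to 0.784 over 10 pairs of populations, and only 1 exceeded 0.1. That was the pair of BM-SSCs and P-SSCs, at 0.784, whose arrays deviated together by number. With the number as a replicate block, which leaves out the Nes+ array, 2 genes passed against CD45+ cells in CD51+ BMSCs, 9 in either SSC population and 10 in Osx+ cells, 5 for CD51+ BMSCs against Osx+ cells, 0 for BM-SSCs and 1 for P-SSCs against CD51+ BMSCs, and 0 between the SSC populations.

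The sign turned in the following cases, in which no gene passed. In BM-SSCs minus Osx+ cells Cd48 was at -0.12 (quantile) and -0.0206 (centring) and Vav1 at -0.20 and -0.0601. In P-SSCs minus Osx+ cells Ikzf1 was at -0.0304 (quantile) and -0.24 (centring). Spi1 was at 0.39 in P-SSCs minus CD51+ BMSCs (quantile) and at -0.0103 in P-SSCs minus BM-SSCs without array 2 of both. When each array was left out in turn, the differences from Osx+ cells ran from -0.35 to 0.70 (Cd48) and from -0.39 to 1.66 (Ikzf1) in BM-SSCs, and from -0.0515 to 2.60 (Ptprc), -0.85 to 2.85 (Laptm5) and -0.99 to 1.06 (Ikzf1) in P-SSCs, the low ends without Osx+ array 1 but for Laptm5, without P-SSC array 1. Against CD51+ BMSCs Vav1 ran from -0.51 to 0.0289 in BM-SSCs and Spi1 from -1.33 to 0.19 in P-SSCs. In P-SSCs minus BM-SSCs Ptprc ran from -2.40 to 0.12, Cd53 from -1.0 to 0.21, Coro1a from -2.05 to 0.0513 and Spi1 from -0.54 to 0.97.

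With 1 or 2 arrays a population, pools of 2 or 3 mice and 5 residual degrees of freedom, the intervals were wide, and a difference that did not pass was not shown to be absent. A population left with 1 array was assumed to vary like the others. The files give no signal over background, and absence of a transcript was not tested.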
